A study of Mus musculus with 10 samples.

Results

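The genes described here are 9 components of the WNT pathway, taken by symbol: the ligands Wnt6 and Wnt7b, the secreted inhibitors Dkk1 and Notum, the receptor Lgr5, the receptor ligase Znrf3, and the nuclear factors and feedback targets Tcf7, Sp5 and Axin2. All 9 had a row in a bulk table of 17793 rows. In 4 single-cell tables that together listed 25038 genes, 7 of the 9 were listed in at least 1 table, and Notum and Sp5 in none. At least 10 counts were reached by 5 members in the differentiated library and by 4 in each of the other 3 single-cell libraries.

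WNT ligands are secreted lipid-modified proteins that bind Frizzled receptors and LRP5 or LRP6 co-receptors, which halts the breakdown of beta-catenin and lets it act with TCF and LEF factors on target genes. Several targets feed back on the pathway: Axin2 rebuilds the complex that destroys beta-catenin, Znrf3 removes Frizzled receptors from the membrane, Dkk1 blocks the LRP co-receptors and Notum strips the lipid from WNT ligands. Mouse trophoblast stem cells (TSCs) are cultured cells of the trophectoderm, the outer layer of the blastocyst that forms the placenta, and WNT ligands made by trophectoderm are known to act in the early embryo.

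The mouse lines had a C57BL/6J background, and their RNA was read with CEL-Seq2, an assay of transcript ends in which each molecule bears an identifier (UMI). For every single-cell group 1 plate of 384 wells was sorted, with cells that carried a GFP expression cassette integrated at random. The groups were F4 TSCs after 6 days without Fgf4, Tgfb and heparin (differentiated TSCs), pTSCs of line pTS1 taken out of blastoids, newly derived pTSCs grown in LT21 medium, and F4 TSCs grown in Tx medium. Blastoids are stem-cell assemblies that resemble blastocysts. The bulk libraries held TSCs with eGFP knocked in at the Cdx2 coding sequence, 3 labelled CDX2-high and 3 labelled CDX2-low. CDX2 is a homeobox factor needed for TSC self-renewal. The labels do not say whether bulk libraries came from separate cultures, so the bulk p-values measure the spread between these libraries, which may be technical.

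Bulk totals were 157588 to 272030 counts in CDX2-high and 116659 to 138966 in CDX2-low libraries, so that every CDX2-high library was the deeper. The Cdx2-eGFP transcript was higher in CDX2-high libraries (log2 fold change 3.53 ± 0.29 SE, Benjamini-Hochberg adjusted p = 1.31e-08 by the quasi-likelihood test of edgeR). The groups are named for this gene, so the difference checks the labels and is not a separate result. The Cdx2 row itself had 6 counts in CDX2-high and 1 in CDX2-low libraries, overlapped between groups and was not tested. Wells were kept from 2000 non-mitochondrial UMIs upward and numbered 318 in the differentiated, 257 in the blastoid, 299 in the pTSC and 318 in the TSC library, with medians of 8473, 8242, 6844 and 15091 UMIs in the same order. With 1 library per group there is no test between single-cell groups: intervals are at 95% and cover the error of counting alone, and a gene with at least 10 counts over both libraries was called at a 2-fold difference. Levels are CPM, a gene's counts scaled to 1000000 in its library, without mitochondrial genes in single cells.

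Some wells stood apart from their own library when wells were clustered with the 9 members left out of the variable genes. In the TSC library 2 wells fell in a cluster otherwise made of differentiated wells, 7 pTSC wells fell in the blastoid cluster, and 4 differentiated wells fell in a TSC cluster. In the blastoid library 18 wells formed a cluster and 1 well lay with the pTSCs. Of the 10 leading genes of that cluster, Stmn2 and Tdh came first, and Tdgf1, Fgf4 and Pou5f1 are markers of the epiblast. In the whole blastoid library Tdgf1 had 63 UMIs in 17 wells, Fgf4 45 in 14 wells and Pou5f1 6 in 5 wells. Nanog, of the same marker list, was not listed. Over the whole blastoid library 3 of 5 measured epiblast markers were higher than in pTSCs, 1 lower and 1 within 2-fold. The 18 wells of that cluster held 1 Wnt6, 1 Dkk1, 3 Znrf3 and 9 Tcf7 UMIs. Whether the wells that stood apart hold cells of their labelled culture was not tested. Values that rest on such wells are given with and without them.

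Among the ligands, Wnt7b was the member that differed between the sorted bulk groups. Wnt7b, on mouse chromosome 15, acts in placental development in the mouse, where it is needed for the fusion of chorion and allantois. It stood at 984, 840 and 926 CPM in the 3 CDX2-high libraries, against 540, 489 and 252 CPM in the 3 CDX2-low libraries. The lowest CDX2-high library lay above the highest CDX2-low library, and 1 CDX2-low library was well under the other two. The means were 917 ± 72.3 CPM in CDX2-high and 427 ± 154 CPM in CDX2-low libraries (SD, n = 3 each), behind which stood 623 counts in CDX2-high and 165 in CDX2-low libraries. The log2 fold change was 1.09 (SE 0.23, adjusted p = 0.00392 by edgeR, 0.000704 by DESeq2), and it passed in all 10 alternative fits, with adjusted p up to 0.0256. Of the 3006 genes tested, 3.09% were called higher and 2.79% lower in CDX2-high libraries, and 11.7% had all 3 CDX2-high libraries above all 3 CDX2-low libraries.

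Some marker genes differed between the sorted groups. The marker lists were chosen with earlier results of these data known, so their values here are a description. Of 12 mural trophectoderm markers, genes of the trophectoderm that does not touch the inner cell mass, 7 were tested: 4 fell in CDX2-high libraries and 0 rose. Their summed level ran from 1440 to 1703 CPM in CDX2-high and from 3141 to 3217 CPM in CDX2-low libraries, with none at 0 in all 6. Of 12 polar trophectoderm markers 10 were tested: 3 rose, 0 fell and 7 did not pass. The 12 summed to 4021 to 4277 CPM in CDX2-high and 2837 to 3993 CPM in CDX2-low libraries, and Duox2 was at 0 in all 6. Of the 7, Gsto1, Eomes, Esrrb, Elf5 and Sox2 leaned higher in CDX2-high libraries. Rhox5 (mean 975 CPM in CDX2-high and 1426 CPM in CDX2-low) and Fgfr2 (40.6 CPM in CDX2-high and 82.6 CPM in CDX2-low) leaned lower. Of 7 ectoplacental cone and spongiotrophoblast markers all 3 tested fell (median log2 fold change -1.71), with sums of 171 to 296 CPM in CDX2-high and 609 to 911 CPM in CDX2-low libraries, and Tpbpa at 0 in all 6. Their part in the Wnt7b difference was not tested, and in bulk RNA fewer cells of a type and less RNA per cell cannot be told apart. With every library thinned to the smallest total, Wnt7b was still higher in CDX2-high libraries, by 1.02 (adjusted p = 0.0124, edgeR).

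**Figure D1:**
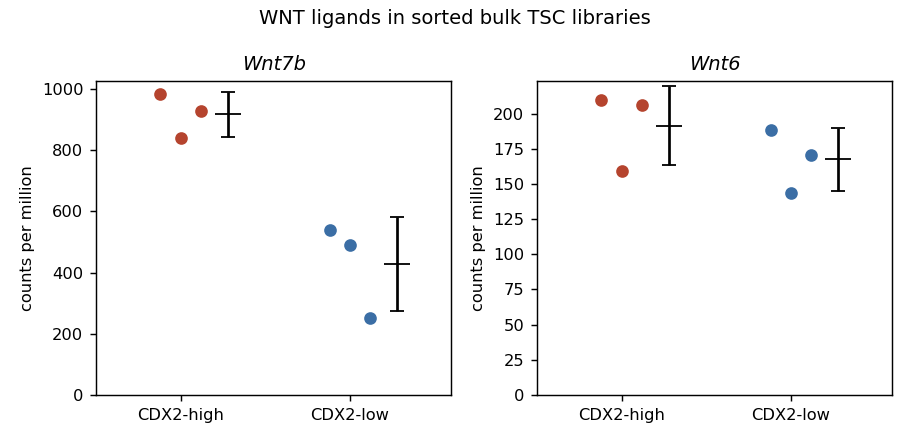
Wnt7b and Wnt6 in CPM in the 6 bulk libraries, with 1 point per library and the mean ± SD (n = 3) to the right of each group. All 3 CDX2-high points lie above all 3 CDX2-low points for Wnt7b (means of 917 CPM in CDX2-high and 427 CPM in CDX2-low), while the groups overlap for Wnt6 (192 CPM in CDX2-high and 168 CPM in CDX2-low).

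The other ligand, Wnt6, on chromosome 1, did not pass the same test. Its levels were 209, 159 and 206 CPM in the CDX2-high libraries, against 189, 144 and 170 CPM in the CDX2-low libraries. The groups overlapped, with means of 192 ± 27.9 CPM in CDX2-high and 168 ± 22.5 CPM in CDX2-low libraries (SD, n = 3 each). The log2 fold change was 0.18 (SE 0.26, adjusted p = 0.791, edgeR), which rests on 130 counts in CDX2-high and 65 in CDX2-low libraries.

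In single cells Wnt7b was barely detected. It had 1 UMI over all 4 single-cell libraries, in the TSC library, although 788 counts fell on it in bulk. GENCODE M21 gives Wnt7b 6 transcripts. Of the 205 genes with 6 annotated transcripts and at least 100 bulk counts, 21 (10.2%) had 0 or 1 UMI in the TSC library, against 11 (8.73%) of 126 genes with a single annotated transcript. The share was 4.89% of 654 genes with 2 to 4 transcripts and 7.74% of 1253 with 5 or more. The median log2 ratio of the TSC library to bulk was -2.10 for the genes with 6 transcripts and 0.46 for those with 1. This median was -0.01 for genes with 2 to 4 transcripts and -2.98 for those with 5 or more. The annotation of transcript ends behind each table was not given in the sources used here. The bulk cells carried another transgene and their counts are in a separate table, and what sets the Wnt7b gap was not tested.

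Wnt6 was the ligand with most counts in single cells, and its level was highest in undifferentiated F4 TSCs. It had 221 CPM (720 UMIs) in the differentiated library, 91.97 CPM (213 UMIs) in the blastoid library, 250 CPM (610 UMIs) in the pTSC library and 466 CPM (2512 UMIs) in the TSC library. The order from the top was therefore TSC, pTSC, differentiated and blastoid, with differentiated TSCs at 0.884 of the pTSC level (0.793 to 0.986). After thinning every well to 2000 UMIs, 25.16% of differentiated wells held a Wnt6 UMI (20.48 to 30.3), as did 12.06% of blastoid wells (8.345 to 16.68), 35.12% of pTSC wells (29.71 to 40.82) and 50.63% of TSC wells (44.99 to 56.25). The thinned shares stood in the same order as the levels.

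Differentiated TSCs had 2.11-fold less Wnt6 than TSCs (1.94 to 2.29, log2 ratio -1.08). In pTSCs Wnt6 was 1.86-fold lower than in TSCs (1.70 to 2.04), which is within the 2-fold limit. Blastoid pTSCs had 2.72-fold less than pTSCs (2.32 to 3.20, log2 ratio -1.44). The counts were spread over many wells: the 10 richest wells held 27.92% of the Wnt6 UMIs in the differentiated library and 17.12% in the TSC library. Without the wells that stood apart, the same ratios were 2.12-fold, 1.86-fold and 2.69-fold lower, so these wells hardly entered them. A call of lower at 2-fold went to 18% of 12158 genes between differentiated TSCs and TSCs, to 13.9% of 12070 between pTSCs and TSCs, and to 9.42% of 11343 between blastoid pTSCs and pTSCs.

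**Figure D2:**
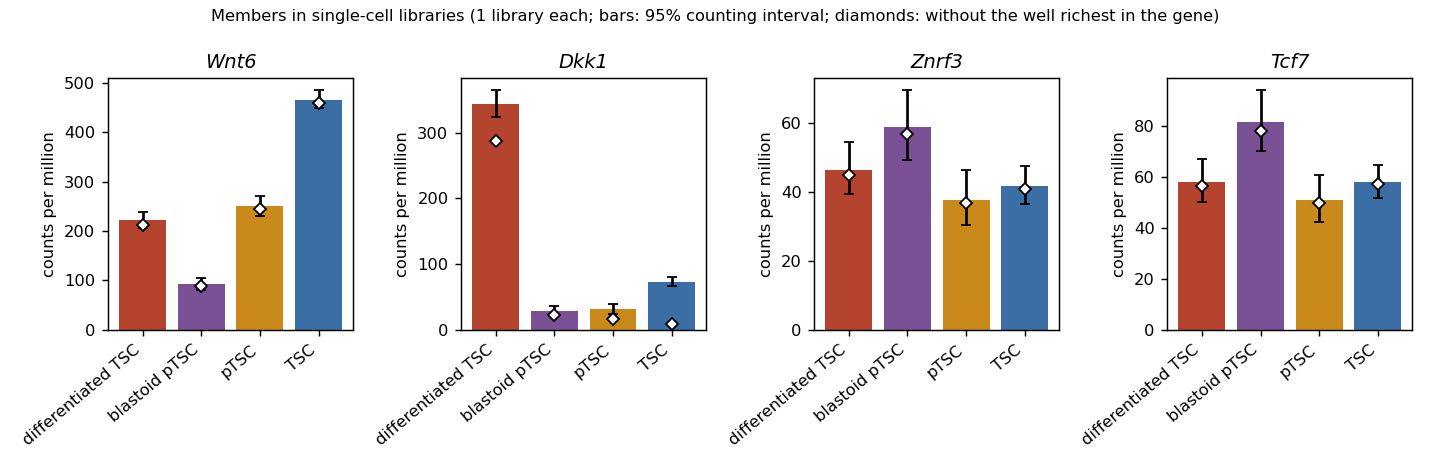
Level of Wnt6, Dkk1, Znrf3 and Tcf7 in CPM in the 4 single-cell libraries, with 95% counting intervals. Diamonds give the level without the well richest in that gene: it hardly moves Wnt6, Znrf3 and Tcf7, but takes Dkk1 in the TSC library to 8.60 CPM, against 73.1 CPM with that well.

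The promoters of Dkk1 and Wnt6, the members with the most single-cell counts, are shown for the letters of the TCF and LEF binding motif, through which beta-catenin acts. The motif searched was CTTTGNN, with A or T at each N, on both strands, in the 250 bases before each RefSeq start (GRCm38.p6). Of 32851 such promoters 14.8% held at least 1. For 5 of the 9 members an entry was found, with 6 promoters in all, and 2 of these, of Dkk1 and Sp5, held matches. In Dkk1 (chromosome 19, minus strand) the matches began 117 and 98 bases before the start, did not overlap each other and both read along the strand of the gene. The stretch chr19:30549586-30549615 is printed from the gene's strand, with the matches in capitals:
Dkk1: agCTTTGAAatcccatcccggCTTTGTTgt
The GENCODE M21 gene reaches to position 30549665 and so includes this stretch. The Wnt6 promoter, chr1:74771642-74771891 on the plus strand, held no match, and 79.6% of its bases were G or C:
Wnt6: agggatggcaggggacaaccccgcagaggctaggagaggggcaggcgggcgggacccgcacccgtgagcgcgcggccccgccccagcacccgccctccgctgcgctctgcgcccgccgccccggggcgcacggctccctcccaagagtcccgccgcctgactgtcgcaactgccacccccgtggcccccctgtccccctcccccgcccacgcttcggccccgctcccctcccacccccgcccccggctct
Sp5 had matches 222 and 104 bases before its start, the farther on the opposite strand. These are matches of letters, and binding was not measured.

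Dkk1, a secreted antagonist of LRP5 and LRP6, differed between libraries and between wells. It had 344 CPM (1118 UMIs) in the differentiated library, 28.5 CPM (66 UMIs) in the blastoid library, 30.8 CPM (75 UMIs) in the pTSC library and 73.1 CPM (394 UMIs) in the TSC library. The TSC value came mostly from 1 well, which held 348 of the 394 UMIs (88.32%), while the next wells held 4 and 3. Without that well the TSC level was 8.60 CPM. In the differentiated library the richest wells held 190, 69 and 52 UMIs, in pTSCs 36, 26 and 4, and in blastoid cells 16, 15 and 4.

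Differentiated TSCs had 4.70-fold more Dkk1 than TSCs over all kept wells (4.18 to 5.28). Without the richest well of each library the ratio was 33.4-fold (24.8 to 45.97, from 928 UMIs in differentiated TSCs and 46 in TSCs), and without the wells that stood apart it was 40.02-fold (29.8 to 54.98, from 1118 in differentiated TSCs and 46 in TSCs). The direction held each way, and the size depended on that TSC well. The 2 TSC wells that stood apart had clustered with differentiated wells, so leaving them out favours a larger ratio. After thinning, a Dkk1 UMI was found in 20.13% of differentiated wells (15.86 to 24.96) and in 2.83% of TSC wells (1.302 to 5.304). Without thinning the shares were 38.68% of differentiated and 12.58% of TSC wells, and wells under 200 UMIs held no Dkk1 in any library. Calls of higher at 2-fold went to 17.5% of genes in this comparison.

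The TSC well rich in Dkk1 had 37728 UMIs, more than the median of 15047 in the other 317, of which 14 had more. Its Dkk1 level was 9224 CPM, where the next highest well had 647 CPM. It held no UMI of Wnt6 or of Eomes, a TSC regulator, which had medians of 368 and 259 CPM in the other wells. The 12 mural markers summed to 10125 CPM in it (median of the others 3483), and 13 others had more. Of its 382 mural UMIs, Krt18 held 187 and Krt8 52. The 12 polar markers summed to 1087 CPM, below 314 of the 317 others. The primitive endoderm is another cell type with a marker list. Its markers summed to 2545 CPM in this well (median of the others 617), and 3 others had more. Over the whole TSC library Col4a1 alone had 721 of the 740 CPM of this list, and Gata4 was not listed. The sum is therefore no sign of that cell type by itself. The well rich in Dkk1 was 1 of the 2 TSC wells that clustered with differentiated wells.

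Between pTSCs and TSCs the direction of Dkk1 depended on the wells kept. Over all kept wells pTSCs had 2.38-fold less than TSCs (log2 ratio -1.25). Without the richest well of each library they had 1.87-fold more (1.19 to 2.93), and without the wells that stood apart 2.91-fold less (1.31 to 7.65, from 7 UMIs in pTSCs and 46 in TSCs). Of the 75 Dkk1 UMIs in the pTSC library, 68 lay in the 7 wells that clustered with blastoid cells. The thinned shares of wells with a Dkk1 UMI, 2.007% in pTSCs and 2.83% in TSCs, had overlapping intervals. Calls of higher went to 17.6% of genes here and calls of lower to 13.9%.

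Between blastoid pTSCs and pTSCs, Dkk1 differed by less than counting error over all kept wells (ratio 0.926, 0.655 to 1.31). Without the wells that stood apart it was 9.97-fold higher in blastoid pTSCs (4.58 to 25.8, from 65 UMIs in blastoid pTSCs and 7 in pTSCs). The 7 pTSC wells left out were those that clustered with blastoid wells. Leaving out wells for likeness to the other group favours a difference, so this ratio does not settle whether the groups differ. The thinned share was 4.669% of blastoid wells (2.436 to 8.014) and 2.007% of pTSC wells (0.7399 to 4.316), and these intervals overlap. Calls of higher went to 13.4% of genes in this comparison.

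**Figure D3:**
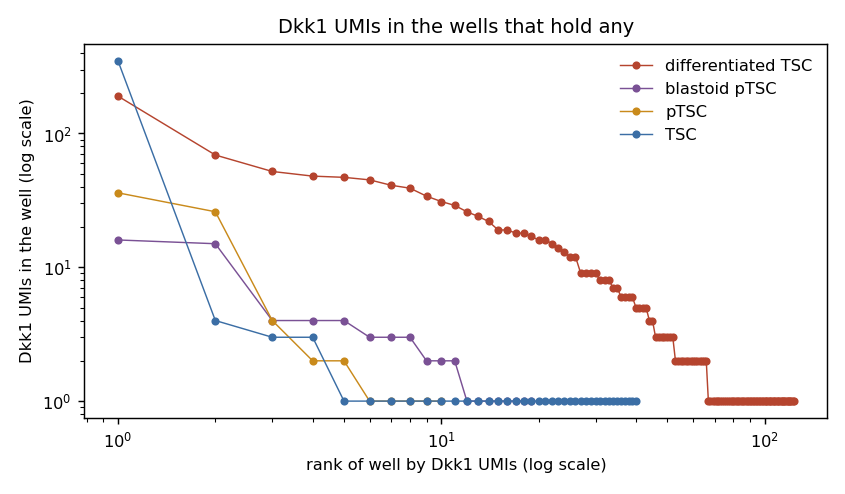
Dkk1 UMIs per well, from the richest well on, in each single-cell library, on log axes. The differentiated library declines over 123 wells from 190 UMIs, while the TSC library has 1 well at 348 and the next at 4.

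**Figure D4:**
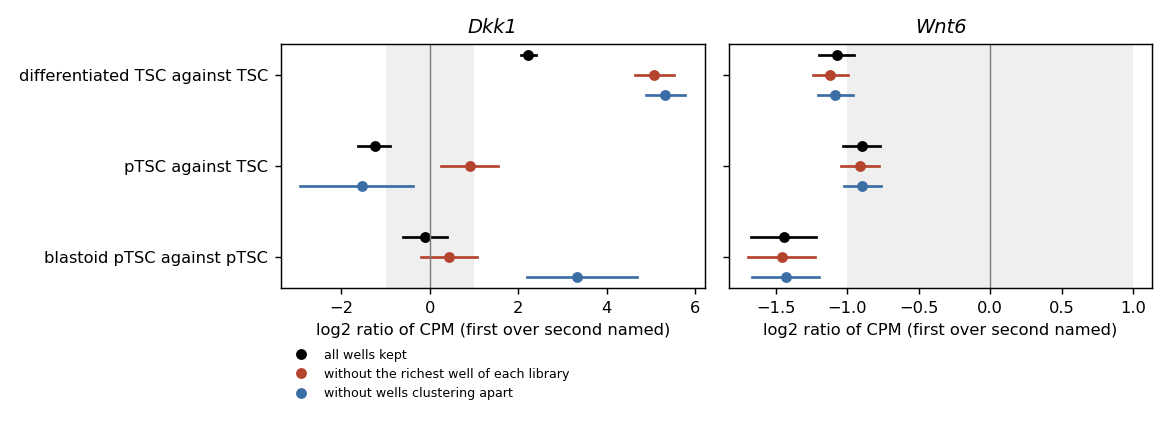
Log2 ratios of Dkk1 and Wnt6 in the 3 single-cell comparisons, with 95% counting intervals, over all kept wells, without the richest well of each library, and without wells that clustered apart. The grey band marks less than a 2-fold difference. Dkk1 in pTSCs against TSCs lies at -1.25, 0.90 and -1.54 in these settings, while Wnt6 stays in place.

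In bulk, Dkk1 was near the limit of detection, with 0, 2 and 0 counts in CDX2-high libraries and 1, 9 and 1 in CDX2-low libraries. It did not pass the filter on low counts. Fitted without that filter its log2 fold change was -2.91 (adjusted p = 0.130, edgeR), with 9 of the 13 counts in 1 library. The other secreted inhibitor, Notum, had no count in any bulk library, where a count of 0 allows up to 11.03 to 19.04 CPM in CDX2-high and 21.6 to 25.7 CPM in CDX2-low libraries. Neither Notum nor any difference in it could be measured at this depth.

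Within the differentiated library Wnt6 and Dkk1 were highest in different clusters. The library split mainly into a cluster of 162 wells and a cluster of 152 wells. Leading genes were ranked for each cluster against all other wells of all libraries, and not between these clusters. In that ranking Slc34a2, Dkk1, Vnn1 and Timp2 were among the 10 leading genes of the first, and Rgs16, Rgs5 and Nodal led the second. The first was ranked together with the 2 TSC wells that clustered with it, 1 of them the well rich in Dkk1. Median depths were 8902 UMIs in the first and 8388 in the second. Dkk1 stood at 592 CPM in the first and 77.2 CPM in the second, and the first held 89.3% of its UMIs. A Dkk1 UMI was found in 48.8% of wells of the first and 28.9% of the second. The 10 wells richest in Dkk1 held 53.31% of its UMIs in the differentiated library, so these levels rest largely on few wells. Wnt6 stood at 99.01 CPM in the first and 356 CPM in the second, with a UMI in 29.6% of wells of the first and 73.7% of the second. Both clusters had more Dkk1 than the main TSC cluster, which had 7.43 CPM, and less Wnt6 than its 498 CPM. These clusters are given as a description, since the cells were grouped by their own transcripts.

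Well by well no such separation was clear. After thinning, 12 of 64 differentiated wells with Dkk1 also held Wnt6 (18.8%), against 68 of the 254 others (26.8%). Without thinning the shares with Wnt6 were 53.7% of the wells with Dkk1 and 48.2% of the others, where wells with Dkk1 were deeper (median 10971 UMIs, against 7704), and the Pearson r between the log-scaled genes was -0.07 over 318 wells. The 10 wells richest in Dkk1 had 270 CPM of Wnt6, near the 221 CPM of the whole library.

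**Figure D5:**
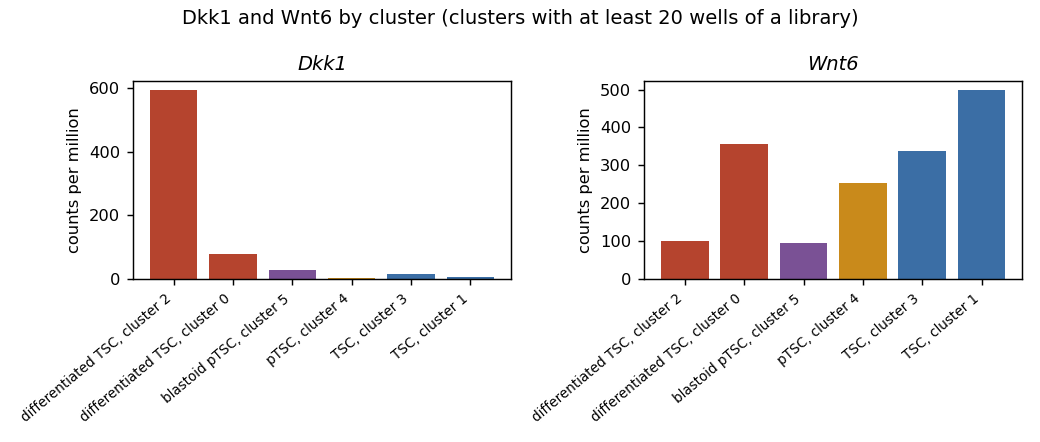
Dkk1 and Wnt6 in CPM by cluster, for clusters with at least 20 wells of a library. In the differentiated library Dkk1 is at 592 CPM in cluster 2 and 77.2 CPM in cluster 0, and Wnt6 at 99.01 CPM in cluster 2 and 356 CPM in cluster 0.

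Genes whose levels ran most like a member's across wells were sought among those detected in 10% or more of a library's wells, by Pearson r of log-scaled counts, and of those at 0.3 or above the first 5 per member and library are named. In the 318 differentiated wells, 91 of 6287 genes reached 0.3 with Wnt6. The first 5 were Hmmr (0.49), Efna3 (0.48), Mki67 (0.47), Ccnb2 (0.45) and Rrm2 (0.45), of which Mki67 and Ccnb2 are transcripts of dividing cells and Rrm2 makes DNA precursors. The most opposed gene was Nrk (-0.46), a kinase gene of the spongiotrophoblast. With Dkk1, 24 genes reached 0.3, led by the VEGF receptor Flt1 (0.45), Pdgfb (0.43), the protease Mmp11 (0.40), Zbtb38 (0.40) and the cell-cycle inhibitor Cdkn2b (0.39). These values share wells, libraries and depth.

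In the other libraries fewer genes reached 0.3. In 318 TSC wells 6 genes reached 0.3 with Wnt6, the first 5 being Sord (0.35), Efna3 (0.34), Pomp (0.32), Rpl8 (0.32) and Fkbp3 (0.30), and Nrk was again the most opposed (-0.33). With Dkk1 only Lmna did (0.30). No gene reached 0.3 with Wnt6 in pTSCs, and 3 did in blastoid cells, Ghr, Lin28a and Soat1 (0.30 each). For the other members the genes that did were Cryl1 with Znrf3 in differentiated wells (0.34) and Gm14150 with Tcf7 in pTSCs (0.33).

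The receptor members were low. Lgr5, a receptor for R-spondins and a marker of WNT-driven stem cells in the intestine, had 19 UMIs in 11 wells of the differentiated library, 4 UMIs in the blastoid library and 1 in the TSC library, and was not listed in the pTSC table. Of the 19, 2 wells held 5 each. The ratio of differentiated TSCs to TSCs was 31.5 (5.001 to 1307), an interval that reflects the single TSC count. On the log2 scale this is 4.98, and it was 3.17 from the mean over wells of CPM and 2.25 against pTSCs in place of TSCs, with the unlisted pTSC value set at 3 counts. After thinning, 0.6289% of differentiated wells (0.07626 to 2.253) and 0 of 318 TSC wells (up to 1.153%) held a Lgr5 UMI, so that the shares cannot be told apart at this depth. In bulk Lgr5 had 1, 0 and 1 counts in CDX2-high libraries and 0 in each CDX2-low library.

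Znrf3, the membrane ligase that removes Frizzled, was within 2-fold in all 3 single-cell comparisons. It had 46.4 CPM in the differentiated library, 58.7 CPM in the blastoid library, 37.7 CPM in the pTSC library and 41.8 CPM in the TSC library. Differentiated TSCs and TSCs did not differ beyond counting error (ratio 1.11, 0.898 to 1.37). Blastoid pTSCs had 1.56-fold more than pTSCs (1.19 to 2.05), and 1.57-fold more without the wells that stood apart. In bulk Znrf3 had 1, 3 and 1 counts in CDX2-high and 0 in each CDX2-low library, and was not tested.

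Tcf7, a TCF factor that partners beta-catenin on DNA, was also within 2-fold in all 3. It had 58.1 CPM in the differentiated library, 81.6 CPM in the blastoid library, 50.9 CPM in the pTSC library and 57.9 CPM in the TSC library. The ratio of differentiated TSCs to TSCs was 1.003 (0.833 to 1.21). In blastoid pTSCs Tcf7 was 1.604-fold higher than in pTSCs (1.27 to 2.03), and 1.59-fold without the wells that stood apart, the highest library being the blastoid one for Tcf7 as for Znrf3. The thinned shares of wells were 11.95% in differentiated, 15.95% in blastoid, 11.71% in pTSC and 12.26% in TSC wells, with intervals that overlap. Bulk counts of Tcf7 were 1, 2 and 3 in CDX2-high and 0, 0 and 1 in CDX2-low libraries.

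The feedback target used most often as a readout of the pathway, Axin2, was too low to judge. It had 1 UMI over the 4 single-cell libraries, in the blastoid library. In bulk it had 3, 0 and 1 counts in CDX2-high and 1, 2 and 1 in CDX2-low libraries, and was not tested. Sp5, a transcription factor that WNT signals induce, had no count in bulk. No difference in Axin2 or Sp5 could be read from these counts. The 8 bulk counts of Axin2 amount to 7.43 CPM, while the TSC table does not list the gene, and what sets this gap was not tested.

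Of 100 other genes of the pathway, 90 were in the bulk table and 16 were tested, of which 2 rose and 2 fell in CDX2-high libraries, where 5.89% of all tested genes were called. The median log2 fold change of the 16 was -0.11, beside -0.01 over all genes. All 3 tested genes of the list of targets changed, in both directions. The cyclin Ccnd1 rose by 2.51 on the log2 scale (adjusted p = 0.000968, edgeR) and the growth regulator Myc by 1.64 (adjusted p = 0.0427, edgeR). Jun, an AP-1 factor of the same list, fell by 2.45 (adjusted p = 1.35e-06, edgeR). Csnk1a1, a kinase of the destruction complex, fell by 0.89 (adjusted p = 0.0279, edgeR).

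Not all 4 calls were firm. Csnk1a1 lost its call in 5 of 10 alternative fits, DESeq2 among them (adjusted p = 0.132). Myc lost its call in 5 of the 8 alternative fits that gave it an adjusted p, and DESeq2 gave it none. The most counted nuclear partner, Tcf7l1, had a log2 fold change of 0.21 (adjusted p = 0.690, edgeR), and beta-catenin itself, Ctnnb1, of -0.20 (adjusted p = 0.742, edgeR). No other ligand, of the 23 genes for ligands and ligand release, passed the filter on low counts.

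Between differentiated TSCs and TSCs, 53 of the 100 pathway genes were measured, of which 11 were higher, 9 lower and 33 within 2-fold, near the 17.5% higher and 18% lower over all genes. The median log2 ratio was 0.09, beside 0.05 over all genes, and the genes below are given as values. Among receptors, Fzd5 was 3.51-fold and Fzd8 2.18-fold higher in differentiated TSCs, and Fzd1 was lower (33 UMIs in differentiated TSCs and 185 in TSCs, log2 ratio -1.76). Among ligands and their enhancers, Wnt7a was 3.69-fold higher, and the R-spondin Rspo1 had 3 UMIs in differentiated TSCs against 57 in TSCs. The secreted inhibitor Sfrp2, which binds WNT ligands, was lower (log2 ratio -2.30), as was Ctnnbip1 (-1.42), which keeps beta-catenin from TCF factors. Among targets and co-factors, Sox9 was 7.25-fold, Jun 3.55-fold, Bcl9l 2.82-fold and Sox4 2.498-fold higher, and Bambi lower (-1.89).

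The cell-type markers also differed between these libraries. The 12 polar markers summed to 2223 CPM in differentiated TSCs and 7085 CPM in TSCs, with 10 of 11 measured lower. Ly6a, at 0 in differentiated TSCs and 2 UMIs in TSCs, was too low to compare. The 12 mural markers summed to 7669 CPM in differentiated TSCs and 4288 CPM in TSCs, with Gata2 at 0 in both. Of 11 measured, 4 were higher, 1 lower and 6 within 2-fold. Krt8 and Krt18 carried most of the rise in the sum. Krt8 had 2224 CPM in differentiated TSCs and 350 CPM in TSCs, and Krt18 had 2373 CPM and 1284 CPM. The 8 giant cell markers summed to 299 CPM in differentiated TSCs and 44.2 CPM in TSCs. Of the 299 CPM, Serpinb9e had 228 and Serpinb9g 48.9. Of 4 measured, 3 were higher, and Hand1 was lower (0.92 CPM in differentiated TSCs and 2.60 CPM in TSCs). Prl3d1, Prl2c2, Ctsq and Prl7a1 were at 0 in differentiated TSCs. Their part in the values of the WNT genes was not tested.

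Between pTSCs and TSCs, which differ in line and medium, 55 pathway genes were measured, of which 14 were higher, 6 lower and 35 within 2-fold, beside 17.6% higher and 13.9% lower over all genes, with a median of 0.02 beside -0.04 over all genes. Of 8 measured genes for other ligands and ligand release, 5 were higher and 0 lower. Wnt3 was 12.04-fold (5.85 to 27.9), Wnt4 4.29-fold and Wnt7a 2.89-fold higher in pTSCs, against the lower Wnt6 there. Among targets, Sox9 was 8.50-fold, Ccnd1 4.88-fold, Sox4 3.79-fold and Bambi, a TGF-beta pseudoreceptor, 2.39-fold higher. Fzd1 was 2.96-fold and the kinase Csnk1e 2.52-fold higher, while Kremen1, a DKK1 receptor, was lower (log2 ratio -1.56), as was Dvl3 (-1.16). Of 12 polar markers 4 were higher, 1 lower and 7 within 2-fold. They summed to 17387 CPM in pTSCs and 7085 CPM in TSCs, of which Gsto1 alone had 10333 CPM in pTSCs and 1034 CPM in TSCs. The mural markers summed to 6026 CPM in pTSCs and 4288 CPM in TSCs, with 3 of 11 measured higher, 1 lower and 7 within 2-fold. Their part was not tested.

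Between blastoid pTSCs and pTSCs, 50 pathway genes were measured, of which 9 were higher, 12 lower and 29 within 2-fold, beside 13.4% higher and 9.42% lower over all genes, with a median of -0.15 beside 0.07 over all genes. Several genes high in pTSCs were lower in blastoid cells: Wnt4 (log2 ratio -1.20), Fzd1 (-1.71), Bambi (-1.51), Ccnd1 (-1.47), Sox4 (-1.36) and Csnk1e (-1.11). Fzd5 was 3.58-fold, Kremen1 3.04-fold, Bcl9l 3.11-fold, the co-repressor Tle3 2.72-fold and the secreted inhibitor Sfrp1 3.33-fold higher in blastoid pTSCs. This comparison shares the pTSC library with the one before, so opposite signs in the pair of comparisons are not independent. The mural markers summed to 10868 CPM in blastoid pTSCs and 6026 CPM in pTSCs, with 3 of 11 measured higher and 1 lower. The polar markers summed to 6566 CPM in blastoid pTSCs and 17387 CPM in pTSCs, with 5 of 12 lower and 0 higher, and of these sums Gsto1 had 2957 CPM in blastoid pTSCs and 10333 CPM in pTSCs. Of the ectoplacental cone and spongiotrophoblast markers all 5 measured were higher (3642 CPM in blastoid pTSCs and 873 CPM in pTSCs), and the giant cell markers summed to 116 CPM in blastoid pTSCs and 4.1 CPM in pTSCs, with Prl3d1 and Prl2c2 listed in neither table. Their part was not tested.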

How the data were processed

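Libraries were made with CEL-Seq2 from 6 bulk samples and 4 plates of 384 sorted wells. Well numbers are plate positions, so all 384 recur in each plate and mark no shared cells. The bulk table deposited by the authors holds counts, which are whole and unscaled. The single-cell tables deposited by the authors hold transcripts per gene and well, treated as estimated counts. They are whole numbers and were used with no further rounding. The submitters' processing notes name STAR 2.5.3a. The build, annotation and counting program were not given in the sources used here. Coordinates come from the GENCODE M21 and RefSeq GRCm38.p6 tables.

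For bulk, edgeR 4.0.16 was run under R 4.3.3 (filterByExpr, TMM, glmQLFit and glmQLFTest, adjusted p under 0.05 by Benjamini-Hochberg over 3006 genes), and with DESeq2 1.42.0 as an alternative. A standard error is the size of the log2 fold change over the root of F. Replicate numbers run on between the groups and pair nothing.

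In single cells, wells under 2000 UMIs outside mitochondrial genes were left out: 66 differentiated, 127 blastoid, 85 pTSC and 66 TSC wells. Of these, 19, 87, 20 and 17 held under 200 UMIs. Counts were summed per library. Ratios carry exact conditional binomial intervals, levels exact Poisson intervals and shares Clopper-Pearson intervals, all at 95%. Doublets were not called in these sorted wells. Clusters came from scanpy 1.11.5 (2000 variable genes without the members, 30 principal components, 15 neighbours, Leiden at resolution 0.5), and a cluster was named when 3 of its 10 leading genes were markers of 1 cell type. Other steps used scipy 1.17.1, pandas 2.3.3 and numpy 2.4.6 under Python 3.11.15. The scripts were tested on simulated data.

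All 9 members are named. Of the other pathway genes, those called in bulk are named, with Tcf7l1 and Ctnnb1 added after their values were seen, and in single cells at most 12 per comparison with the largest fold and at least 50 counts. Members and lists were chosen with earlier results of these data known. Alternatives were other scalings, filters, well minimums, thinning, DESeq2, left-out libraries or wells, and another library to compare with.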

Additional observations from a re-analysis of the deposited data

Results flagged for a closer look

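Wells under 2000 UMIs were not used in the comparisons, and 4 counts of members in them exceeded the 3 counts that a count of 0 allows. Such wells held 12 Dkk1 UMIs in the differentiated library (318 CPM, near the 344 CPM of the kept wells), 12 Wnt6 UMIs in the pTSC library (192 CPM) and 14 in the TSC library (358 CPM). In the TSC library they also held 6 Znrf3 UMIs (154 CPM, from 39077 UMIs in all). Wells under 200 UMIs held no UMI of these 3 genes in any library.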

How the results depend on the processing

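No paired analysis was possible because the bulk replicate numbers run on from one group to the other and the single-cell groups have 1 library each. In bulk, 93 genes were higher and 84 lower in CDX2-high libraries, against 48 and 27 by DESeq2 and 61 and 54 after thinning to the smallest total. Leaving out 1 library at a time gave 50 to 98 higher and 31 to 91 lower, with the fewest without CDX2-high library 39. Wnt7b kept its direction and its call in all 10 alternatives (log2 fold change 0.84 to 1.29) and Wnt6 missed the threshold in all (0.08 to 0.33).

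In single cells, counts of called genes moved by over 1.5 times with 50 counts as the minimum: 1074 higher and 1246 lower in differentiated TSCs, 755 and 925 in pTSCs against TSCs, and 581 and 412 in blastoid pTSCs. Thinned wells gave 1282 and 1229, 982 and 1011, and 932 higher in blastoid pTSCs. Fewer genes reach the count minimum in both cases. Set against TSCs in place of pTSCs, blastoid cells had 2546 higher. With mitochondrial genes in the total, log2 ratios of differentiated TSCs against TSCs shifted by -0.161.

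Dkk1 in pTSCs against TSCs (-1.25) reversed to 2.04 without the 5% deepest wells and to 0.90 without the richest well of each library, which include the TSC well with 348 UMIs. In differentiated TSCs its log2 ratio ran from 2.07 to 5.32, and in blastoid pTSCs from -1.36 to 3.32. Wnt6 stayed lower in all 3 comparisons, from -1.27 to -0.18 in differentiated TSCs, where -0.18 is against pTSCs. The setting without wells that stood apart was chosen after seeing the data. Some of those wells were left out for likeness to the group compared with, which favours a difference. Low counts limit what can be read of Lgr5, with 1 UMI in the TSC library, and of Axin2.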
